A study of Mus musculus with 6 samples.

Results

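The miR-379 to miR-410 cluster is a run of miRNA hairpins in the imprinted Dlk1-Dio3 region of mouse chromosome 12. Its members were taken by name, as every mouse entry of the panel, from either arm, with 1 of 36 base numbers from miR-379 to miR-410. All 36 base numbers were on the panel, and they gave 42 entries out of 566 mouse miRNAs. Of the 42 names, 12 gave an arm and 30 did not.

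In this region the maternal chromosome is the active one for non-coding RNA, and the cluster's hairpins are cut from long maternal transcripts such as Mirg. The neighbouring protein-coding genes Dlk1, Rtl1 and Dio3 are expressed from the paternal chromosome. The cluster is known for high expression in the embryo, the placenta and the brain, and for low expression in most adult tissues.

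The study used NanoString counting to profile miRNAs in liver RNA from 3 APC fl/fl mice and 3 APC +/+ mice, all on the C57Bl/6 background, with each library made from the fresh frozen liver of 1 mouse. APC fl/fl mice carry a hypomorphic Apc allele on both chromosomes and developed hepatocellular carcinoma (HCC) dependent on Wnt/β-catenin, and no Cre or drug is named for these 6 mice. APC +/+ mice carry the wild-type gene, and their livers had no tumour. The comparison asked which miRNAs differed between tumour-bearing and normal liver. Age and sex are not given in the sources used here. The APC fl/fl RNA came from tumour-bearing liver tissue, with no sort of cells described, so fewer cells of a type and less RNA per cell cannot be told apart.

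The values are estimated counts per probe, from 82942 to 133331 mouse miRNA counts per liver. Background was read from 33 viral miRNA probes, which have no target in mouse liver, and the viral probe limit of a liver was their mean plus 2 SD there. This limit lay between 13.1 and 27.8 counts, and a miRNA at or under it is treated here as not above background. The liver label held, since the hepatocyte miRNA miR-122 had 6688 to 29686 counts in every liver. APC fl/fl 2 stood apart from the other livers with 202 mouse miRNAs above the limit, against 140 to 178 elsewhere. Its limit was also the lowest in counts, at 13.1, and a lower limit lets more miRNAs pass. Fold bounds, counts and tests that rest on APC fl/fl 2 are therefore also given without it where the remaining livers allow a value.

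The mature sequences are printed 5′ to 3′ with the seed, bases 2 to 8, in capitals. They come from RefSeq on GRCm38.p6, where all 36 hairpins were found on the forward strand and their 68 mature miRNAs spanned chr12:109709065-109743784, or 34720 bases. The first set holds the hairpins whose miRNAs were higher in every APC fl/fl liver than in any APC +/+ liver, together with miR-376a, the near relative of miR-376b. The panel names these without an arm, so both arms are shown where the table holds them.
miR-376b-5p, chr12:109723471-109723492: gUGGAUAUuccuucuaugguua
miR-376b-3p, chr12:109723508-109723528: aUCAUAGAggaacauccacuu
miR-376a-5p, chr12:109723786-109723807: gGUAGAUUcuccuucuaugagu
miR-376a-3p, chr12:109723824-109723844: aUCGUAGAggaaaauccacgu
miR-376c-5p, chr12:109722733-109722754: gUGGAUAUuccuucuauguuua
miR-377-5p, chr12:109740515-109740536: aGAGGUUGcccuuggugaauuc
miR-377-3p, chr12:109740553-109740574: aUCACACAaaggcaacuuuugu
miR-411-5p, chr12:109710190-109710210: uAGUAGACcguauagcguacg
miR-411-3p, chr12:109710225-109710246: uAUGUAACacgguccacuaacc
miR-543-5p, chr12:109717269-109717289: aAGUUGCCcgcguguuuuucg
miR-543-3p, chr12:109717304-109717325: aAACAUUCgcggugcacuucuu

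The miR-376b and miR-376a hairpins are neighbours, and the miR-654 hairpin lies between them and miR-376c. Counted from the 5′ end of miR-376b-3p, miR-376a-3p differed by A4G, C13A and U20G, with 18 of 21 bases identical, and the first of these changes lies in the seed. The 5p arms of miR-376c and miR-376b shared the seed UGGAUAU and differed only by U19G, with 21 of 22 bases identical. The panel names these entries without an arm, so the compared strands may not be the ones probed. The other arm of miR-376c was not in the sequences used and could not be compared. Close copies could share probe signal only where the probed strands are the similar ones. Counts of a single miR-376 entry are uncertain to that extent. miR-376a was at the floor of 1 count in APC fl/fl 1, where miR-376b had 211 counts.

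The second set holds the hairpins for which the panel measured both arms separately and at least 1 arm rose clearly above the limit.
miR-369-5p, chr12:109743431-109743452: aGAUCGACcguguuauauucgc
miR-369-3p, chr12:109743466-109743486: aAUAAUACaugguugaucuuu
miR-409-5p, chr12:109743172-109743194: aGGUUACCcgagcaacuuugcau
miR-409-3p, chr12:109743204-109743225: gAAUGUUGcucggugaaccccu

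The third set holds the hairpins of the only members above the limit in all 6 livers, which did not follow the rest of the cluster.
miR-154-5p, chr12:109738438-109738459: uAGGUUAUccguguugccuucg
miR-154-3p, chr12:109738474-109738495: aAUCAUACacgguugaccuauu
miR-494-5p, chr12:109715334-109715355: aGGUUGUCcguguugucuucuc
miR-494-3p, chr12:109715367-109715388: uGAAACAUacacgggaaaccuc

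Across the 68 mature sequences, only 5 seeds were shared by more than 1, each by 2 miRNAs. The printed miR-411-3p shares its seed with miR-379-3p, and the printed miR-494-5p shares its seed with miR-410-5p. The panel names none of these miRNAs with an arm, so a shared seed may lie on a strand that was not measured. The cluster is therefore a set of mostly different seeds, and members are described below singly.

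The cluster was near background in normal liver and broadly present in 1 of the 3 APC fl/fl livers. Of the 42 members, 4, 2 and 4 were above the limit in APC +/+ 1, 2 and 3. In APC fl/fl 1, 2 and 3 the numbers were 6, 27 and 5. APC fl/fl 2 therefore had 64.3% of the cluster above its limit, beside 35.7% of all mouse miRNAs in the same liver, and the other livers had 4.76% to 14.3% of the cluster above theirs. The limit of APC fl/fl 2 was the lowest of the 6 in counts, but with a fixed limit of 20 counts the number was still 23, against 3 to 10 in the other livers.

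Cluster miRNAs made up 0.666%, 0.75% and 0.576% of mouse miRNA counts in APC +/+ 1, 2 and 3. They made up 1.13%, 3.799% and 0.671% in APC fl/fl 1, 2 and 3. The share was highest in APC fl/fl 2, with a 95% Wilson interval of 3.68% to 3.92% that covers counting error only, and next in APC fl/fl 1, with 1.07% to 1.20%. The share in APC fl/fl 3 lay within the APC +/+ range. The APC +/+ mean was 0.664% ± 0.0873 (SD, n = 3). The APC fl/fl mean was 1.87% ± 1.69 (SD, n = 3), or 0.902% without APC fl/fl 2. No test was run on a sum over the members.

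A large part of the normal liver's cluster signal came from miR-154 and miR-494. This pair held 48.7%, 54.2% and 67.4% of the cluster's counts in the APC +/+ livers. It held 34.6%, 6.07% and 56.5% in the APC fl/fl livers. Without the pair, the remaining 40 members made up 0.188% to 0.343% of counts in APC +/+ livers against 0.741%, 3.57% and 0.292% in APC fl/fl 1, 2 and 3.

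**Figure D1:**
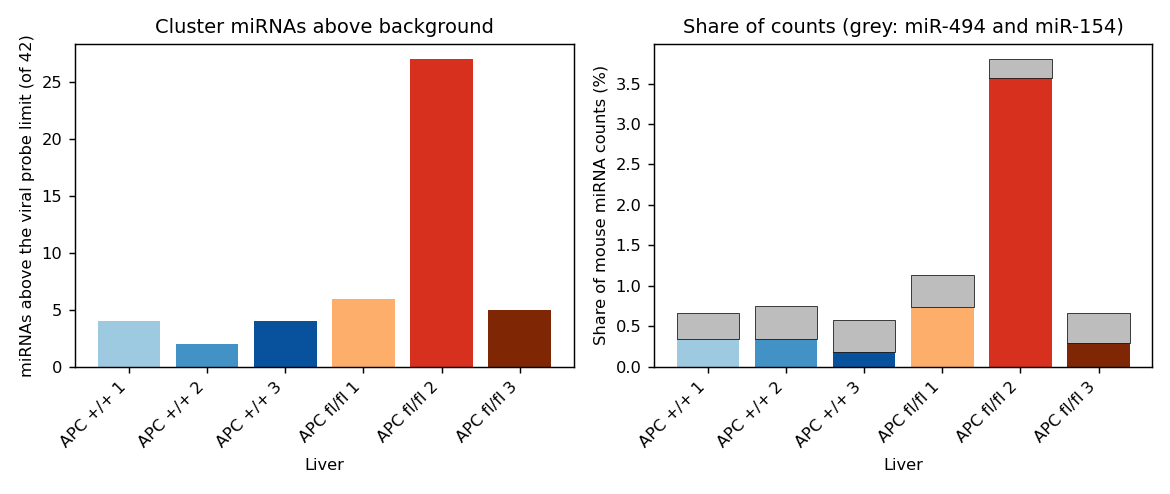
Bars show, for each of the 6 livers, the number of the 42 cluster miRNAs above the viral probe limit (left) and the cluster's share of mouse miRNA counts in percent (right, with miR-494 and miR-154 in grey). APC fl/fl 2 stands far above the other 5 livers in both, with 27 miRNAs and 3.799%, while its grey portion is the smallest of the 6.

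Relative to the mean of the APC +/+ livers, the median member differed by 0.12, 1.31 and -0.55 on the log2(normalised count + 1) scale in APC fl/fl 1, 2 and 3. Over all 566 mouse miRNAs the medians were -0.24, -0.36 and -0.57. Of the 42 members, 11, 21 and 5 lay at least 1 log2 unit above the APC +/+ mean in these 3 livers, or 26.2%, 50.0% and 11.9%. The matching shares of all mouse miRNAs were 9.19%, 10.6% and 6.89%. Averaged over the 3 livers, the median member difference was 0.27, beside -0.39 over all mouse miRNAs, and it was -0.20 without APC fl/fl 2.

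By where they rose above the limit, the members fell into 6 kinds. miR-376b alone was above it in all 3 APC fl/fl livers and in no APC +/+ liver. Another 5, miR-369-3p, miR-376c, miR-377, miR-381 and miR-543, were above it in 2 APC fl/fl livers and no APC +/+ liver. A further 17 were above it in 1 APC fl/fl liver and no APC +/+ liver, and that liver was always APC fl/fl 2. miR-1197, miR-410, miR-496 and miR-654-3p were each above it in 1 APC +/+ liver, and miR-154 and miR-494 in all of them. Of the first 4, miR-410 and miR-496 also passed it in APC fl/fl 2. The remaining 13 stayed at or under the limit in all 6 livers, at 1 to 15.7 counts.

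**Figure D2:**
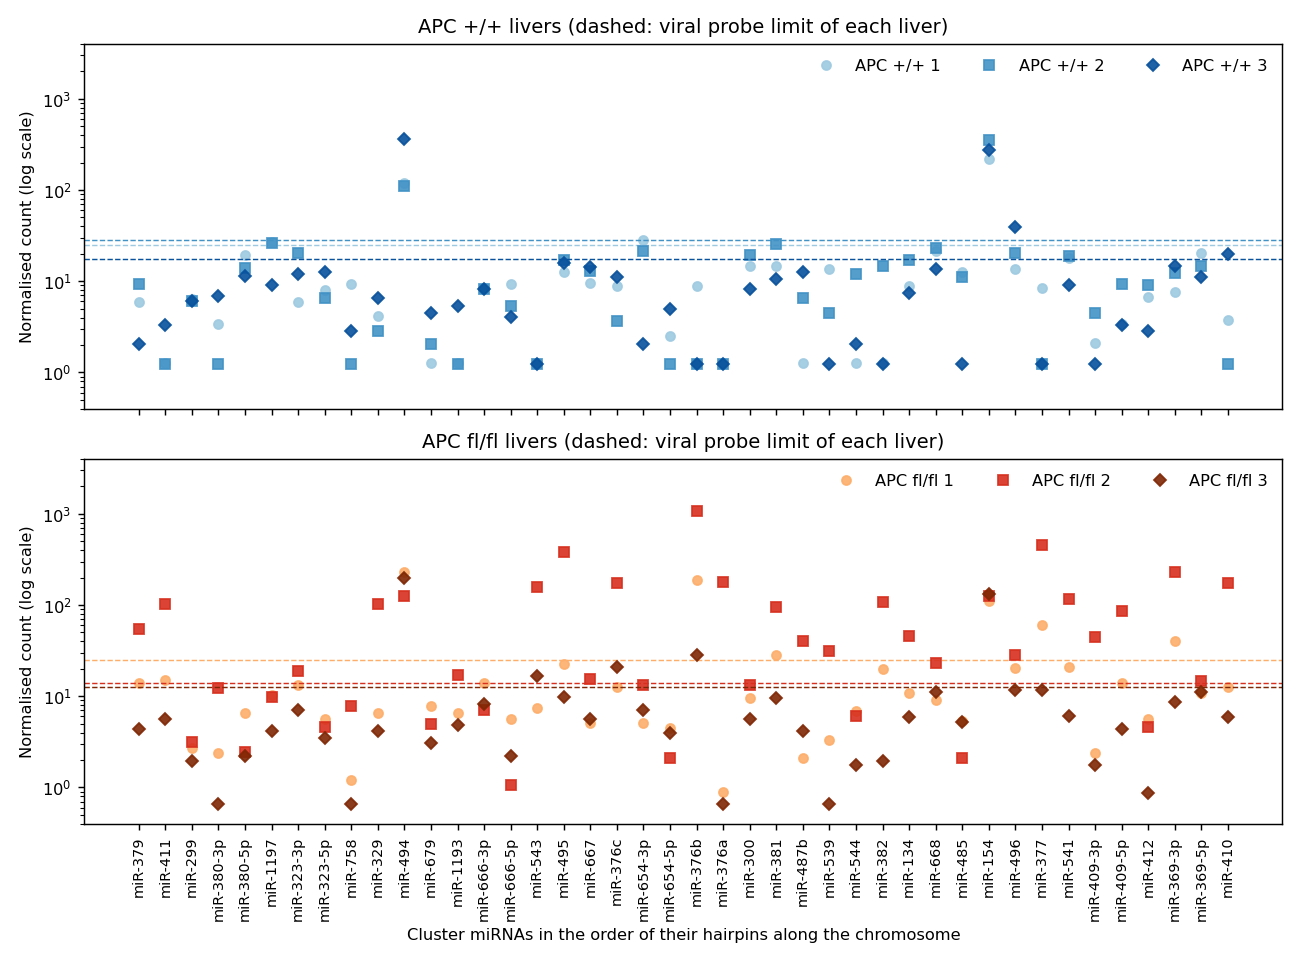
Points show the normalised count, on a log scale, of each of the 42 cluster miRNAs in the order of their hairpins along the chromosome, with APC +/+ livers above and APC fl/fl livers below. Dashed lines mark each liver's viral probe limit on the same scale. In APC +/+ livers only miR-154 and miR-494 are above the limit in all 3. miR-1197 and miR-654-3p are above it in APC +/+ 1, and miR-410 and miR-496 in APC +/+ 3. In APC fl/fl 2, members from both ends of the cluster are above it.

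Members that rose in APC fl/fl 2 came from the whole length of the cluster. Of the 42, 22 had their highest normalised count there, beside 12.2% of all mouse miRNAs, and 21 of these 22 were also above its limit. They ran from position 1 to position 36 in hairpin order. Of the 22 members in the first 18 hairpins, 9 were among them, and of the 20 members in the last 18 hairpins, 12 were. Their counts in APC fl/fl 2 ran from 14.7 to 1026 with a median of 97.7. Their medians were 14.0 in APC fl/fl 1 and 8.67 in APC fl/fl 3, and no APC +/+ count passed 20.7. Since the 21 were picked for being highest in APC fl/fl 2, the direction of this contrast was set by that choice. Only 4 of the 21 were also above the limit in APC fl/fl 1, and 3 in APC fl/fl 3, so the order of those 2 livers could not be read for most of them.

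miR-376b was the most abundant signal among these members. Its hairpin is known for adenosine-to-inosine editing, which can alter the seed. Its counts were 7, 1 and 1 across the APC +/+ livers against 211, 1026 and 43 across the APC fl/fl livers. Every APC fl/fl liver was above its limit and every APC +/+ liver under it, so the genotypes did not overlap. Against the viral probe limit of the APC +/+ livers, miR-376b was at least 18.3-fold higher in APC fl/fl, and at least 4.58-fold higher without APC fl/fl 2. The fitted log2 difference was 6.81 ± 1.57 (SE), with an edgeR adjusted p of 0.0559, and 4.90 without APC fl/fl 2, with an edgeR adjusted p of 0.0468. Since the APC +/+ counts were at background, these fitted values depend on the floor and are not bounds.

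No member passed an adjusted p of 0.05 in edgeR's quasi-likelihood test in either direction, and neither did any other miRNA, so the share called was 0.0% of the 174 miRNAs tested both for higher and for lower values. At an unadjusted p under 0.05, 8 members were higher in APC fl/fl, where 13.8% of the tested miRNAs were, and 1 member was lower, where 10.9% were. DESeq2 called 6 members higher at an adjusted p under 0.05 (miR-369-3p, miR-376b, miR-376c, miR-377, miR-411 and miR-543), with 11.5% of tested miRNAs called higher, and 1 member lower (miR-154), with 5.17% called lower. Only 16 of the 42 members reached the mean of 20 counts needed for the test, and 3 would reach it without APC fl/fl 2 (miR-154, miR-376b and miR-494). Without APC fl/fl 2, edgeR and DESeq2 each called miR-376b higher at an adjusted p under 0.05, where edgeR called 3.25% and DESeq2 9.74% of the tested miRNAs higher. miR-154 was called lower by DESeq2, which called 7.14% lower, and not by edgeR, which called 1.95% lower. At an unadjusted p under 0.05 in edgeR, miR-376b was the only member higher (11.7% of tested miRNAs) and miR-154 the only member lower (12.3%). The counts over tested members therefore do not describe the whole cluster, since most of the 16 entered through the liver in which they were high.

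On normalised counts, 5 members lay higher in every APC fl/fl liver than in any APC +/+ liver, while 5.12% of all mouse miRNAs did. These 5 were miR-376b, miR-376c, miR-377, miR-411 and miR-543. The same 5 were found without APC fl/fl 2, where 6.71% of all mouse miRNAs did so, but then miR-376b alone was above the limit in both remaining livers. With 3 livers against 3, the exact two-sided permutation test cannot go below p = 0.1, and each of the 5 was at p = 0.1.

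miR-377, which is known to raise fibronectin in kidney mesangial cells, had 6.67, 1 and 1 counts in the APC +/+ livers against 66.7, 430.7 and 17.7 counts in the APC fl/fl livers. It was above the limit in APC fl/fl 1 and 2, and in APC fl/fl 3 it was higher than in any APC +/+ liver but not above background. miR-377 was at least 7.39-fold higher in APC fl/fl, and at least 1.504-fold without APC fl/fl 2 (edgeR adjusted p = 0.075 with all livers).

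miR-543 was at the floor of 1 count in all 3 APC +/+ livers, and had 8.33, 150 and 25.3 counts in the APC fl/fl livers. It was above the limit in APC fl/fl 2 and 3. miR-543 was at least 2.57-fold higher (edgeR adjusted p = 0.068), and without APC fl/fl 2 its mean did not exceed the limit of the APC +/+ livers.

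Like miR-543, miR-376c was above the limit in APC fl/fl 2 and 3. It had 7, 3 and 9 counts in the APC +/+ livers against 14, 164 and 32 counts in the APC fl/fl livers. The genotypes did not overlap on normalised counts, and the difference was at least 2.90-fold (edgeR adjusted p = 0.14). miR-411 had 1, 1 and 2.67 counts in the APC +/+ livers against 16.7, 97.7 and 8.67 in the APC fl/fl livers. It was above background in APC fl/fl 2 only, and the difference was at least 1.74-fold (edgeR adjusted p = 0.0872). For miR-376c and miR-411 the mean without APC fl/fl 2 did not exceed the limit of the APC +/+ livers.

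Several members with high counts in APC fl/fl 2 did not separate the genotypes. miR-376a had 1 count in 5 livers and 169 counts in APC fl/fl 2. miR-495 had 10, 14 and 13 counts in the APC +/+ livers against 25, 365 and 15 in the APC fl/fl livers. miR-410, the last hairpin, had 3, 1 and 16 counts in the APC +/+ livers against 14, 166 and 9 in the APC fl/fl livers. In each of these, APC fl/fl 2 had by far the highest count and the other APC fl/fl livers were under their limits, and miR-410 was also above the limit in APC +/+ 3. The edgeR adjusted p-values were 0.186 for miR-376a, 0.197 for miR-495 and 0.262 for miR-410, and without APC fl/fl 2 none of the 3 reached the count minimum.

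miR-381 had 11.7, 20.7 and 8.67 counts in the APC +/+ livers against 31.7, 90.7 and 14.7 in the APC fl/fl livers. It was above the limit in APC fl/fl 1 and 2, and the edgeR adjusted p was 0.35. miR-300 resembles it closely, since miR-300-3p and miR-381-3p shared 19 of 22 bases, with G4A in the seed and U21G and C22U at the end, counted on miR-300-3p. miR-300 stayed at or under the limit in all 6 livers.

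The size of the excess in APC fl/fl 2 over APC fl/fl 1 can be given only where both were above background. Among the 21 members highest in APC fl/fl 2 and above its limit, this held for miR-369-3p, miR-376b, miR-377 and miR-381. Their normalised counts were 3.37-fold (miR-381) to 7.61-fold (miR-377) higher in APC fl/fl 2, with a median of 5.70-fold. They were picked for being highest there, so the direction of this difference was set by that choice. miR-154 and miR-494 were also above the limit in both livers. Their normalised counts in APC fl/fl 2 were 1.15-fold and 0.54-fold those in APC fl/fl 1.

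Among the members above the limit in APC fl/fl 2 only were miR-329, with 97.3 counts there and 2.33 to 7.33 elsewhere, and miR-382, with 103 counts there and 1 to 22 elsewhere. miR-541 had 110 counts there and 7.33 to 23.3 elsewhere. miR-379, the first hairpin, had 51.7 counts there and 1.67 to 15.7 elsewhere. All 4 were under their limits in the other APC fl/fl livers. The least secure of this kind were miR-1193, miR-323-3p, miR-369-5p, miR-667 and miR-668, whose normalised counts in APC fl/fl 2 were under the mean limit of the APC +/+ livers.

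**Figure D3:**
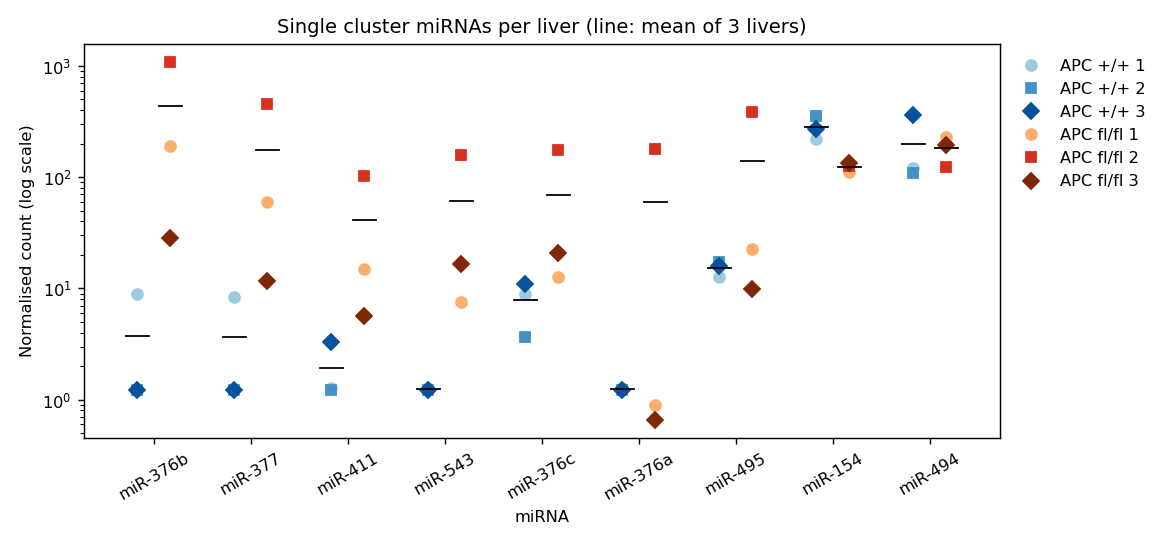
Points show the normalised count of 9 cluster miRNAs in each liver on a log scale, with APC +/+ livers to the left and APC fl/fl livers to the right of each name, and a line at the mean of 3 livers. The first 5 miRNAs do not overlap between genotypes, miR-376a and miR-495 are high in APC fl/fl 2 alone, miR-154 is lower in all 3 APC fl/fl livers and miR-494 overlaps.

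The strands of a hairpin could be compared where the panel held both. For miR-369, the 3p arm, known from work on translation of the tumour necrosis factor mRNA, had 6, 10 and 12 counts in the APC +/+ livers against 45, 217 and 13 in the APC fl/fl livers. The 5p arm had 16, 12 and 9 counts in the APC +/+ livers against 12, 14 and 17 in the APC fl/fl livers. The 3p arm was thus above background in APC fl/fl 1 and 2 while the 5p arm barely passed the limit of 13.1 counts in APC fl/fl 2. The 3p to 5p ratio of counts was 15.5 in APC fl/fl 2, the only liver with both arms above the limit, and in APC fl/fl 1 the 3p arm was at 1.62 times the limit. On the means, miR-369-3p was at least 3.91-fold higher in APC fl/fl (edgeR adjusted p = 0.156), and at least 1.03-fold without APC fl/fl 2. The genotypes overlapped, since its normalised count of 8.5 in APC fl/fl 3 was under 12.3 in APC +/+ 2 and 14.7 in APC +/+ 3.

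Both arms of miR-409 were high in APC fl/fl 2. The 5p arm had 2.67, 7.67 and 2.67 counts in the APC +/+ livers against 15.7, 80.7 and 6.67 in the APC fl/fl livers. The 3p arm had 1.67, 3.67 and 1 counts in the APC +/+ livers against 2.67, 41.7 and 2.67 in the APC fl/fl livers. Each was above background in APC fl/fl 2 only, where the 5p to 3p ratio of counts was 1.94. Probes can differ in efficiency, so these ratios are of signal rather than of molecules.

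For the remaining hairpins with both arms on the panel, the signal was weak. miR-323-3p passed the limit in APC fl/fl 2 only, with 17.7 counts, and miR-323-5p in no liver. miR-654-3p passed it in APC +/+ 1 only, with 22.7 counts, and miR-654-5p in no liver. Neither arm of miR-380 or miR-666 passed it in any liver.

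**Figure D4:**
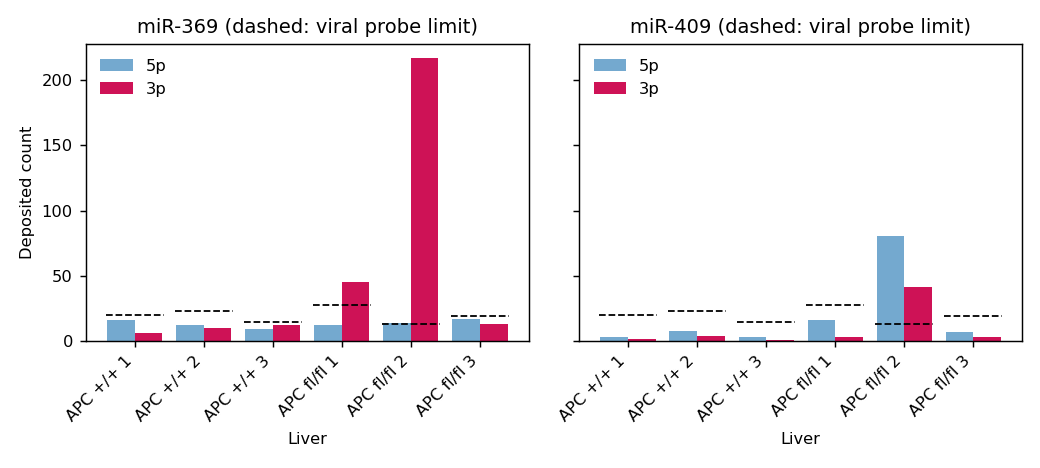
Bars show the deposited counts of the 5p and 3p arms of miR-369 (left) and miR-409 (right) in each of the 6 livers, with dashes at each liver's viral probe limit. For miR-369 the 3p arm reached 217 counts in APC fl/fl 2 while the 5p arm stayed near the limit, and for miR-409 both arms rose above it in that liver.

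Of the 42 members, 20 did not follow the cluster, meaning that they were not highest in APC fl/fl 2 or were above the limit in all 3 APC +/+ livers. Among these, miR-154 ran the opposite way. miR-154 had 173.7, 288.7 and 222.7 counts in the APC +/+ livers against 122.7, 119.7 and 203.7 counts in the APC fl/fl livers. After normalisation these were 219.2, 354.4 and 273.5 against 110.3, 126.7 and 133.7, so every APC fl/fl liver lay below every APC +/+ liver. The log2 difference was -1.19 ± 0.26 (SE), with an edgeR adjusted p of 0.0559 and an exact two-sided permutation p of 0.1. With the total count as library size, the log2 difference of miR-154 was -0.79, against a median over all tested miRNAs that moved from 0.01 to 0.45, so relative to that median it was -1.20 and -1.24. With no filter on low counts the log2 difference was -0.74, or -0.66 relative to the median, with an edgeR adjusted p of 0.332. Without APC fl/fl 2 the log2 difference was -1.15 (edgeR adjusted p = 0.0616).

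miR-494 had 95.7, 89.7 and 295 counts in the APC +/+ livers against 255, 118 and 298.7 counts in the APC fl/fl livers. The genotypes overlapped, with the highest normalised count, 362, in APC +/+ 3. The log2 difference was -0.11 ± 0.51 (SE; edgeR adjusted p = 0.889), and its sign turned to 0.48 with the total count as library size. The median over all tested miRNAs moved from 0.01 to 0.45 with that scaling. Relative to that median miR-494 was at -0.12 and 0.02. miR-496 had 10.7, 16.7 and 31.7 counts in the APC +/+ livers against 22.7, 26.7 and 17.7 in the APC fl/fl livers. It overlapped as well, at -0.29 ± 0.58 (SE; edgeR adjusted p = 0.791), or 0.18 with the total count, under the same shift of the median.

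miR-1197, above the limit in APC +/+ 1 only, had 21.3, 21.3 and 7.33 counts in the APC +/+ livers against 11.3, 9.33 and 6.33 in the APC fl/fl livers. miR-668 passed the limit in APC fl/fl 2 with 22 counts, but its 17, 19 and 11 counts in the APC +/+ livers were close to that. Besides miR-154, miR-299, miR-323-5p and miR-380-5p had lower normalised counts in every APC fl/fl liver. These 4 stand beside 20.5% of all mouse miRNAs with that pattern, and the latter 3 were at or under the limit in all livers, so no fold is given.

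The rest of the Dlk1-Dio3 region was measured by 20 further entries. Of these, 1, 1 and 2 were above the limit in APC +/+ 1, 2 and 3, and 5, 9 and 3 in APC fl/fl 1, 2 and 3, with 7 highest in APC fl/fl 2. Their summed share of counts was 0.219%, 0.258% and 0.114% in the APC +/+ livers against 0.37%, 1.07% and 0.2% in the APC fl/fl livers. Of the 6 tested, 1 was higher at an unadjusted p under 0.05 and none passed an adjusted p of 0.05 in edgeR. On normalised counts, 2 of the 20 lay higher in every APC fl/fl liver than in any APC +/+ liver, and 4 lay lower (miR-493, miR-673-5p, miR-770-5p and miR-882), beside the 5.12% and 20.5% of all mouse miRNAs given above. Of the lower ones, miR-493 was above the limit in APC +/+ 3 only and the others in no liver, so their order is that of background values. The order of the APC fl/fl livers by share was that of the cluster.

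Outside the cluster, the 5 tested miRNAs with the largest excess in APC fl/fl 2 over the mean of the other livers, on the log2(normalised count + 1) scale, were miR-127, miR-2183, miR-155, miR-434-3p and miR-136. miR-127 and miR-136, cut from the Rtl1 antisense transcript of the same region, did not overlap between genotypes. miR-127 had 1, 2.33 and 5.33 counts in the APC +/+ livers against 59.3, 406 and 22.3 in the APC fl/fl livers. miR-136 had 32.3, 17.3 and 1 counts in the APC +/+ livers against 47.3, 272 and 94.3 in the APC fl/fl livers. After normalisation miR-136 barely separated, with 40.8 in APC +/+ 1, above its limit, and 42.6 in APC fl/fl 1 (edgeR adjusted p = 0.199). For miR-127 the closest livers were APC +/+ 3 at 6.55 and APC fl/fl 3 at 14.7 (edgeR adjusted p = 0.068).

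Of the other 3, miR-434-3p lies in this region. It had 118 counts in APC fl/fl 2 and 1 to 24 elsewhere. miR-155, an immune cell miRNA from another locus, had 78.3 counts in APC fl/fl 2, 58.3 in APC fl/fl 3 and 1 in each of the other livers. miR-2183 had 97 counts in APC fl/fl 2 and 1 to 27 elsewhere.

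Among the marker miRNAs of blood cells, only the erythroid ones were also highest in APC fl/fl 2. The 6 listed (miR-142-3p, miR-142-5p, miR-144, miR-150, miR-223 and miR-451) summed to 1161 to 1596 normalised counts in the APC +/+ livers against 1019, 4764 and 1772 in APC fl/fl 1, 2 and 3, with 5 of the 6 above the limit in every liver and miR-142-5p in none. The erythroid miR-451 and miR-144 were highest in APC fl/fl 2, miR-451 with 3593 counts against 1452 in APC fl/fl 3 and fewer in the rest, and the other 4 were not. After normalisation, miR-451 alone had 3806 of the 4764 counts in APC fl/fl 2. The part of blood cells in the cluster's rise in APC fl/fl 2 was not tested.

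The other lists did not peak in that liver. Of 3 brain miRNAs, miR-9 and miR-124 were at or under the limit in all 6 livers, and the 3 summed to 36.0 to 54.7 normalised counts in APC +/+ and 15.3 to 39.0 in APC fl/fl 1 and 3, with 41.7 in APC fl/fl 2. The 4 skeletal and heart muscle miRNAs summed to 13.8 normalised counts in APC fl/fl 2, the lowest of the 6 livers, and none was above its limit there. The 5 mesenchymal miRNAs summed to 893.9 to 1318 in the APC +/+ livers against 322, 517 and 725 in the APC fl/fl livers, and none was highest in APC fl/fl 2. The 2 endothelial miRNAs summed to 3584 to 3807 in the APC +/+ livers and to 2764 to 3553 in the APC fl/fl livers. The 3 hepatocyte miRNAs made up 23.4% to 30.6% of counts in the APC +/+ livers against 9.40%, 12.8% and 14.1% in APC fl/fl 1, 2 and 3.

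Of 5 miRNAs from other imprinted loci, miR-675-3p, cut from the H19 transcript, followed another order. It had 4.67, 3.67 and 6.67 counts in the APC +/+ livers against 66.7, 25.7 and 38.7 in the APC fl/fl livers. It was above the limit in all 3 APC fl/fl livers and highest in APC fl/fl 1, not in APC fl/fl 2. The 5 together summed to 54.5 to 110.1 normalised counts in the APC +/+ livers and to 66.1 to 123.8 in the APC fl/fl livers.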

How the data were processed

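RNA from the livers of 3 APC fl/fl and 3 APC +/+ mice was profiled on a NanoString mouse miRNA panel of 566 mouse and 33 viral probes, and groups and replicate numbers came from the sample titles. The deposited values are estimated counts for each probe, which the authors had not scaled between livers. The values show a constant subtracted per probe and a floor of 1. The software for these steps is not given in the sources used here. Library sizes and tests used mouse probes only.

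Counts were rounded and compared with edgeR 4.0.16 in R 4.3.3 (quasi-likelihood test, TMM, mean count of at least 20, Benjamini-Hochberg over 174 miRNAs), after a check of the steps on simulated data. Normalised counts were scaled to the mean effective library, with TMM factors of 0.661 to 1.25. Differences of single livers used log2(normalised count + 1). A lower bound of a fold divides the mean APC fl/fl count by the mean viral probe limit of the APC +/+ livers, where all of these lay at or under it. No liver duplicated another, with a chi-square per degree of freedom of 8.07 to 43 between livers of the same genotype. The edgeR and DESeq2 p-values weigh the genotype difference against the spread between these mice. Intervals cover counting error only. DESeq2 1.42.0, total-count scaling, other count minimums, other limits, subtraction of viral counts, a replicate block and leaving out each liver were tried as alternatives.

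Named members were those above the limit in at least 2 livers, the 5 with the smallest edgeR p in each direction (3 tested members were lower), and both arms where at least 1 passed the limit. Outside the cluster, the rule named the 5 tested miRNAs with the largest excess in the liver with the highest cluster share. Other members were named after their values were seen. The members and lists were chosen with earlier results of these data known. The lists cover the rest of the Dlk1-Dio3 region, hepatocytes, mesenchymal, endothelial and blood cells, brain, muscle and other imprinted loci. The number of value columns without a sample was 0.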

Additional observations from a re-analysis of the deposited data

How the results depend on the processing

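The number of cluster miRNAs called higher in APC fl/fl at an adjusted p under 0.05 was 0 in edgeR and 6 with DESeq2, 4 with the total count as library size, 2 with a count minimum of 60 (5 members tested) and 0 with no filter or with viral counts subtracted. It was 0 to 5 with 1 liver left out, at 1 (miR-376b) without APC fl/fl 2 and 5 without APC fl/fl 3. The number called lower was 0 in edgeR and 1 with DESeq2, with a count minimum of 60 and with viral counts subtracted, and 0 to 0 with 1 liver left out. The replicate numbers do not pair the livers (correlations of deviations -0.07, -0.07 and 0.13), and with a replicate block 2 members were called higher and 0 lower.

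Among 161 values of single members under 12 alternatives, 129 kept their direction and side of the threshold, 23 passed it and 9 changed sign. DESeq2 gave no adjusted p for 2 members, miR-376a and miR-495, which are left out of these counts. miR-376b passed an adjusted p of 0.05 in 6 of 12 alternatives (range 1.787e-06 to 0.219), miR-377 in 4 of 11, miR-543 in 4 of 10 and miR-154 in 3 of 12 (0.000528 to 0.332), and none of these 4 changed direction. The log2 difference of miR-494 was 0.48 after total-count scaling, 0.27 unfiltered, 0.10 with a minimum of 60, 0.10 with viral counts subtracted, 0.066 with the replicate block, and -0.35 to 0.63 with 1 liver left out (0.63 without APC +/+ 3 and 0.16 without APC fl/fl 2). That of miR-496 was 0.18 after total-count scaling and 0.094 unfiltered. The median over all tested miRNAs was 0.45 after total-count scaling and -0.08 unfiltered. Relative to these medians miR-494 was at 0.02 and 0.35. The cause of the sign changes was not tested.

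The mean cluster share in APC +/+ was 0.855% without miR-720 in the total, 0.446% with viral counts subtracted and 0.621% to 0.708% with 1 liver left out. In APC fl/fl it was 0.902% (without APC fl/fl 2) to 2.47%. The mean number above the limit in APC fl/fl was 5.5 (without APC fl/fl 2) to 16.5, and 3 to 4 in APC +/+, with 1 liver left out. In APC +/+ it was 2.33 with a limit at the mean plus 3 SD and 2.33 with the highest viral probe as the limit. The median member difference was 0.59 with the total count (all mouse miRNAs -0.05), -0.30 with values raised to the limit (all mouse miRNAs -0.48), and -0.20 (without APC fl/fl 2) to 0.81 with 1 liver left out.

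In comparisons added after seeing the data, DESeq2 without APC fl/fl 2 called 1 member higher and 1 lower, and members without overlap numbered 8 higher and 2 lower with the total count. With 1 liver left out they numbered 5 to 15 higher (9 without APC +/+ 3, 15 without APC fl/fl 3) and 4 to 9 lower (9 without APC +/+ 3, 8 without APC fl/fl 2). Values near the limit carry little information, since 26 of 42 members had a mean under 20 counts.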
